A study of Homo sapiens with 6 samples.

Results

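Molecular chaperones are proteins that help other proteins fold. The genes described here are those of the heat shock proteins, their J-protein partners, the BAG nucleotide exchange factors, the cytosolic and mitochondrial chaperonins and the heat shock transcription factor HSF1. They were chosen by name: a start of HSPA, HSPB, HSPD, HSPE, HSPH, HSP90, DNAJA, DNAJB, DNAJC, CCT2 to CCT8 or BAG1 to BAG6, or the names TCP1 and HSF1, without names that end in P plus digits, hold a hyphen or occur more than once. This gave 90 of the 27238 rows of the table. 7 of the 90 are pseudogenes whose names the rule did not remove (HSP90AA2P, HSP90AB2P, HSP90AB3P, HSP90AB4P, HSP90B2P, CCT8L1P and HSPA7). The same rule removed HSPBP1 and HSPBAP1, whose names end in P plus a digit, and HSPA14, which has 2 rows.

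The RNA came from QBC-939 cells, a human cholangiocarcinoma (bile duct cancer) line. The control group of 3 libraries received a scrambled shRNA and the other group of 3 an shRNA against Bmi1, all 48 h after treatment and described as separate transfections. All values come from this 1 line and a single time, and no target site of the shRNA is stated. The comparison asks how the mRNA profile changes when BMI1, a subunit of Polycomb repressive complex 1, is lowered.

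HSP70 proteins bind exposed hydrophobic stretches of unfolded proteins in a cycle driven by ATP. J proteins deliver clients to HSP70 and start ATP hydrolysis, whereas HSP110 and BAG proteins release the nucleotide again. HSP90 acts later on kinases, receptors and other near-native clients, TRiC folds actin and tubulin inside a closed chamber, and HSPD1 with HSPE1 does similar work in mitochondria. HSF1 switches on many of these genes under heat and other proteotoxic stress through heat shock elements, which are alternating repeats of GAA and TTC in promoters, and cancer cells often hold high chaperone levels.

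BMI1 stood at 6.65, 5.34 and 6.09 FPKM with the scrambled shRNA and at 1.49, 1.19 and 2.65 FPKM with its own shRNA. FPKM are fragments scaled by transcript length and by the mapped fragments of the library. Levels can be compared between genes only roughly, as this scaling takes no account of GC content. The fall was to 29.5% of control (limma, adjusted p = 0.00162; exact two-sided permutation p = 0.1, the smallest that 3 against 3 can give). Library sums ran from 332910 to 341268 FPKM in control and from 352800 to 360371 with Bmi1 shRNA; how many reads each library holds is unknown. All 8 biliary or epithelial markers had a row, with control means from 164 FPKM for EPCAM to 839.7 FPKM for KRT18 and 2.74 FPKM for KRT7. Their summed level was 1810 to 1971 FPKM in control and 1541 to 1774 FPKM with Bmi1 shRNA, and that of 4 of 5 intestinal markers, nearly all of it LGALS4, was 415 to 421 and 571 to 599.7 FPKM. Of 4 hepatocyte markers 3 had a row and summed to 5.84 to 7.01 and 17.6 to 19.7 FPKM, mostly TTR, and of 3 immune markers 1 had a row, CD68, at 11.1 to 11.96 and 6.78 to 8.39 FPKM. The markers found for fibroblasts (COL1A1), endothelium (PECAM1 and VWF) and adipocytes (PLIN1) stayed under 0.5 FPKM in every library. The part of these shifts in the results below was not tested.

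Promoter sequences are shown for a few genes picked with their direction known. HSPA8 and DNAJA1 rose, and HSPA1A and HSPA1B fell. The shared start region of HSPE1 and HSPD1, which rose together, is also shown. Each sequence is the 300 bases from 250 before to 50 after the start site. They come from RefSeq on GRCh38.p14, where 74 of the 90 names matched. Capitals in HSPA8 and DNAJA1 mark a heat shock element of 3 units (GAANNTTCNNGAA or TTCNNGAANNTTC), and capitals in HSPA1A and HSPA1B mark one of 2 units (GAANNTTC or TTCNNGAA). Each 3-unit motif holds both 2-unit motifs, and each motif reads the same on both strands or as its partner. In HSPE1, capitals mark the 204 bases that also lie in the window of HSPD1 on the other strand.
HSPA8, chr11:123062087-123062386, reverse strand: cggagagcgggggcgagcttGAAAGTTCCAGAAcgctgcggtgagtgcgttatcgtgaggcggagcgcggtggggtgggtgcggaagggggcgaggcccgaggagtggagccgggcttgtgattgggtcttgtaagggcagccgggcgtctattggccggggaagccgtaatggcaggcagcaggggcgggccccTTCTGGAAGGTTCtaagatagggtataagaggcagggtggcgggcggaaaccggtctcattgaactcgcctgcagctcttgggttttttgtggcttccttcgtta
DNAJA1, chr9:33025023-33025322, forward strand: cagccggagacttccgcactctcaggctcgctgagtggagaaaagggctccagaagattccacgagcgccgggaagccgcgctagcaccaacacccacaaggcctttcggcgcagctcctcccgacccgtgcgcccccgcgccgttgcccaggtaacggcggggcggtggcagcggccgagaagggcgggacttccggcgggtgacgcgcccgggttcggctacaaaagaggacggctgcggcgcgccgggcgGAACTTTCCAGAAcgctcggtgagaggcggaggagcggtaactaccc
HSPA1A, chr6:31815293-31815592, forward strand: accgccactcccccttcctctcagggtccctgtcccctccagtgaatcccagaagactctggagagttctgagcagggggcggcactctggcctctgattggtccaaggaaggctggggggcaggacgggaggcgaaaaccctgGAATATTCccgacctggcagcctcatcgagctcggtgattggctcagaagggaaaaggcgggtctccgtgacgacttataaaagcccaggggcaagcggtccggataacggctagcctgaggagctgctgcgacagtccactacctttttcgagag
HSPA1B, chr6:31827488-31827787, forward strand: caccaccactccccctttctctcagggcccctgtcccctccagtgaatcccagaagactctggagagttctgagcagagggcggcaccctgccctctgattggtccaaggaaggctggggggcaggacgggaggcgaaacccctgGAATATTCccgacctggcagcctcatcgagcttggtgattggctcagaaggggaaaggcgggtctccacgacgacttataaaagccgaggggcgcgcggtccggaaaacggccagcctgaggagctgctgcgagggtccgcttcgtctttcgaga
HSPE1, chr2:197500129-197500428, forward strand: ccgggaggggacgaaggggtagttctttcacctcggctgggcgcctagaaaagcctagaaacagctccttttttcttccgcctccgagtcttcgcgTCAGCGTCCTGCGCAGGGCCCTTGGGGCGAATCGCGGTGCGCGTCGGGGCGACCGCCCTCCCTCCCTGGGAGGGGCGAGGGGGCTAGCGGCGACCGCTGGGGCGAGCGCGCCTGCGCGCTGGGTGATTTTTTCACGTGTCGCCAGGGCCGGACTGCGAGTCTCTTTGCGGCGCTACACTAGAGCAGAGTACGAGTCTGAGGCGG
HSPA8 held 2 elements of 3 units, from -230 to -218 and from -55 to -43, where 0 is the first transcribed base of the table. DNAJA1 held 1, from 3 to 15. The other members with one were DNAJB6 (GAACCTTCGCGAA, from -131) and HSPA6 (TTCGCGAAAGTTC, from -74), so that 4 of 74 member windows (5.41%) held it, beside 172 of all 35116 windows (0.49%). DNAJB6 was not called (log2 fold change -0.16), and HSPA6, too low to test, was lower in every Bmi1 shRNA library. The 2-unit motif stood in 23% of member windows and 13.5% of all windows. It was also in HSPB1, HSPA9, BAG2, CCT4 and TCP1, which rose, and in HSPB8, which fell. CCT6B, DNAJB7, DNAJC15, HSPA1L and HSPB6, which held it too, were too low to test. In the 1 window examined per name, HSP90AA1, HSP90B1, HSPH1, HSPD1, CCT2 and CCT8, which rose, held neither motif. Nor did DNAJA3, DNAJB1 and BAG3, which fell. Other start sites of a member were not examined, and the 35116 windows were not reduced to 1 per name. The windows of HSP90AA1 (chr14:102139700-102139999) and DNAJB1 (chr19:14529222-14529521) lie at the upstream end of the gene. HSP90AA1 spans 102080738 to 102139699 and DNAJB1 14514770 to 14529770, so any start further downstream was not covered. A link between motif and direction was not tested. Matches are of letters only and no measure of HSF1 binding, and the absence of these letters in other windows says nothing of HSF1 there. The windows of HSPA1A and HSPA1B, shifted by 1 base, were identical at 92.6% of positions. HSPE1 and HSPD1 start 105 bases apart on opposite strands.

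The chaperone genes covered a wide range of levels. HSP90AB1, the constitutive cytosolic HSP90, was the highest with 405, 394 and 375 FPKM in control and 438, 501 and 518 FPKM with Bmi1 shRNA. It alone made up 19.2% ± 0.761 (SD, n = 3) of the summed FPKM of all 90 rows in control and 20.0% ± 1.41 (SD, n = 3) with Bmi1 shRNA. 12 members had a mean over 50 FPKM across the 6 libraries, among them CCT7, HSPB1, HSPE1, HSPA5 and HSPA8. At the other end, 16 members stayed under 0.5 FPKM in every library. DNAJC15, a J protein of the inner mitochondrial membrane, was listed at 0 in 5 libraries and at 0.00725 FPKM in the sixth. The 90 rows together summed to 2032, 2058 and 2035 FPKM in control and to 2361, 2477 and 2428 FPKM with Bmi1 shRNA, which is 0.607% ± 0.0114 and 0.677% ± 0.0189 of all FPKM (SD, n = 3 each). Both the sum and the share were higher in 3 of 3 Bmi1 shRNA libraries than in any control library. In bulk RNA, fewer cells of a kind and less RNA per cell cannot be told apart.

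Of the 90 members, 63 had a mean of at least 1 FPKM and were tested, and 33 rose and 12 fell by limma fitted to log2(FPKM + 1), with Benjamini-Hochberg adjustment over all 11016 tested rows and a threshold of 0.05. That is 45 of 63, where 57.1% of all tested rows were called, 28.6% as rises and 28.5% as falls. The median log2 fold change was 0.31 over the tested members and -0.02 over all tested rows. The groups did not overlap for 49 of the 63 members, beside 65.4% of all tested rows. All 6 members that passed with a log2 fold change of 1 or more in size were rises (HSP90AA1, CCT2, DNAJA1, CCT8, HSP90B1 and DNAJC12), where 1.92% of tested rows had such a rise and 0.436% such a fall. The filter set HSPA4L, with a mean of 1.18 FPKM, just inside and HSPA12A, with 0.816 FPKM, just outside. HSPA4L was the 1 tested member with a group mean under 1 FPKM, and it passed through its level with Bmi1 shRNA.

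**Figure D1:**
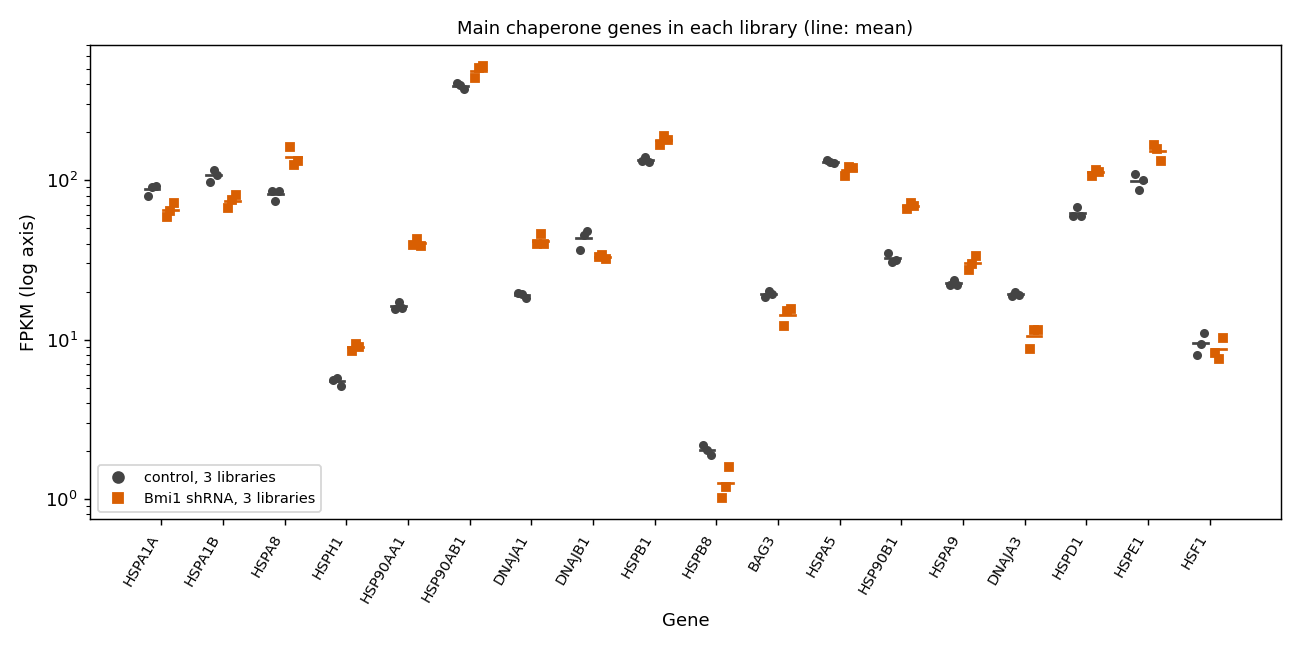
FPKM of 18 main chaperone genes on a log axis, with 3 control libraries (circles), 3 Bmi1 shRNA libraries (squares) and a line at each group mean. HSP90AA1, DNAJA1 and HSP90B1 stand clearly higher with Bmi1 shRNA, HSPA1A, HSPA1B, DNAJB1, BAG3 and DNAJA3 lower, and the 2 groups of HSF1 overlap.

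The direction of change among chaperone genes went with the GC content of the transcript, as it did over all genes. Of 15 tested members under 42% GC, 13 rose and none fell. Of 24 members from 42% to under 50% GC, 17 rose and 1 fell, and of 24 members at 50% GC and over, 3 rose and 11 fell. Over all tested rows the share that rose in these bands was 67.6%, 30.2% and 13.3%, and the share that fell was 2.54%, 21.5% and 44.6%. In the middle band the share of members that rose was 70.8% against 30.2%. Between GC content and log2 fold change, Spearman's rho was -0.681 and Pearson's r -0.637 over the 63 members, and they were -0.473 and -0.439 over 10225 tested rows. These are correlations across genes of the same libraries, and genes are not independent replicates. With the trend in GC content and length removed from each library, 29 members were called higher and 7 lower, where 19.1% and 20.5% of 10225 rows were, and the members' median was 0.20. With the replicate block added to that fit the split was 28 higher and 4 lower. Of the 33 that rose 27 were still called higher, and of the 12 that fell 3 were still called lower (DNAJA3, HSPA1B and DNAJC5). DNAJB4 and DNAJC19, which rose, were then called lower. BAG5 and DNAJA2, not called before, were called lower too, and DNAJC17 and DNAJC30, also not called before, higher. The value with the trend removed is therefore given beside the main genes, although a true change tied to base composition or length would be removed too.

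**Figure D2:**
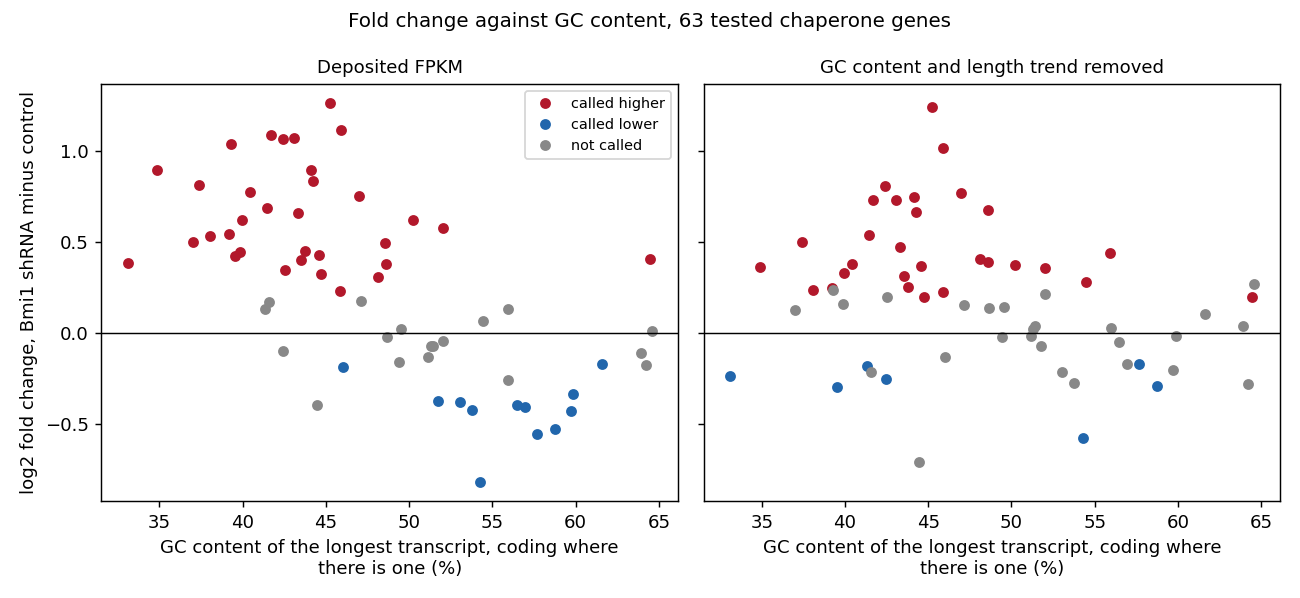
Log2 fold change of the 63 tested chaperone genes (Bmi1 shRNA minus control, vertical axis) against the GC content of their longest transcript (horizontal axis, %), with deposited values on the left and after removal of the trend in GC content and length on the right. On the left 33 genes are called higher, mostly under 50% GC, and 12 lower, mostly above 50% GC, and on the right 29 are higher and 7 lower.

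HSF1, which encodes the transcription factor itself, did not pass the test. It measured 7.97, 9.42 and 10.97 FPKM in control and 8.21, 7.57 and 10.2 FPKM with Bmi1 shRNA, and the groups overlapped. Its log2 fold change of -0.11 had a standard error of 0.14 (adjusted p = 0.522 by limma). Of 20 genes listed as known HSF1 targets, most of them members here, 18 were tested. Of these 11 rose and 6 fell, beside 28.6% and 28.5% of all tested rows. The median was 0.39, and the list did not move as one. CHORDC1 and HSPA4L, among the 11, passed the filter only through their level with Bmi1 shRNA. With the trend removed 10 were called higher and 3 lower. HSF2, a related factor, rose from 0.810 ± 0.230 to 1.649 ± 0.321 FPKM (SD, n = 3 each, with limma adjusted p = 0.0106) but passed the filter only through its level with Bmi1 shRNA, and was not called with the trend removed. HSBP1, a small protein that binds HSF1, rose from 14.1 ± 1.12 to 19.1 ± 1.722 FPKM (SD, n = 3 each, with adjusted p = 0.00706) and was called after removal too.

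Within cytosolic HSP70, the stress-inducible genes fell and the constitutive one rose. HSPA1A measured 79.8, 90.8 and 91.3 FPKM in control and 58.6, 63.7 and 71.4 FPKM with Bmi1 shRNA. HSPA1B, which encodes an identical or near-identical protein, measured 98.0, 116 and 107 FPKM in control and 67.0, 75.2 and 80.1 FPKM with Bmi1 shRNA. Every Bmi1 shRNA library lay below every control library for both genes, and their log2 fold changes were -0.43 and -0.53 (standard error 0.09 each; limma, adjusted p = 0.00738 and 0.00349). Of all stretches of 100 bases in the HSPA1A transcript, 69.9% also occur in that of HSPA1B, so the split of reads between the pair is uncertain. HSPA8, the constitutive HSC70, measured 85.4, 73.7 and 86.0 FPKM in control and 161, 124 and 131 FPKM with Bmi1 shRNA. It rose 1.70-fold without overlap (log2 fold change 0.75, standard error 0.11; limma, adjusted p = 0.00216). The ratio of HSPA1A plus HSPA1B to HSPA8 was 2.08, 2.81 and 2.31 in the control libraries and 0.7804, 1.12 and 1.15 in the Bmi1 shRNA libraries. The inducible sum thus exceeded HSPA8 in every control library and lay near or below it with Bmi1 shRNA. HSPA8 kept its size with the trend removed (0.77; limma, adjusted p = 0.00335), HSPA1B stayed called at -0.29 and HSPA1A did not (-0.20; adjusted p = 0.0573). HSPA6, an HSP70 made only under strong stress, was too low to test, at 0.530, 0.736 and 0.584 FPKM in control and 0.385, 0.381 and 0.436 FPKM with Bmi1 shRNA. HSPA12B, a distant relative, measured 1.43 ± 0.179 and 1.45 ± 0.260 FPKM (SD, n = 3 each) and did not pass.

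The HSP110 genes HSPH1, HSPA4 and HSPA4L, exchange factors that work with HSP70, rose, although HSPA4L passed the filter only through its level with Bmi1 shRNA. HSPH1 measured 5.56, 5.71 and 5.12 FPKM in control and 8.44, 9.42 and 8.94 FPKM with Bmi1 shRNA, a 1.64-fold rise without overlap (log2 fold change 0.62, standard error 0.07; limma, adjusted p = 0.000701). HSPA4 rose 1.29-fold from a higher level of 20.0 ± 0.367 FPKM (SD, n = 3), and HSPA4L 2.02-fold from 0.783 ± 0.0750 FPKM. With the trend removed HSPH1 and HSPA4L were called at 0.33 and 0.24, and HSPA4 was not (0.20; adjusted p = 0.0780).

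HSP90 rose in both the cytosol and the ER, and its inducible form had the largest log2 fold change among the 63 tested members on the log2(FPKM + 1) scale. HSP90AA1, the inducible cytosolic form, measured 15.6, 17.2 and 15.8 FPKM in control and 39.4, 42.6 and 38.8 FPKM with Bmi1 shRNA. The groups were far apart, with a 2.49-fold rise (log2 fold change 1.27, standard error 0.06; limma, adjusted p = 0.0002). At 45.2% GC it was hardly altered by removal of the trend (1.24; adjusted p = 0.000288). HSP90AB1, the constitutive form whose values stand above, rose 1.24-fold (log2 fold change 0.31, standard error 0.07; adjusted p = 0.0122). With quantile normalization its log2 fold change was 0.12 and it was not called (adjusted p = 0.171), while with the trend removed it was 0.41. The ratio of HSP90AA1 to HSP90AB1 went from 0.0413 ± 0.00268 to 0.0833 ± 0.00762 (SD, n = 3 each), with no overlap. The pseudogene HSP90AA2P, of which 3.34% of the 100-base stretches occur in HSP90AA1, was listed at 0.202, 0.405 and 0.617 FPKM in control and at 1.09, 1.20 and 0.779 FPKM with Bmi1 shRNA.

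Genes that HSP90 works with went both ways. The list of HSP90 cochaperones holds 15 genes, of which TRAP1 is the mitochondrial HSP90 itself and not a cochaperone. Of 14 tested, 3 rose and 6 fell, TRAP1 among them, where 28.6% of all tested rows rose and 28.5% fell. STIP1, which hands clients from HSP70 to HSP90, fell from 57.0 ± 1.21 to 41.3 ± 0.616 FPKM (SD, n = 3 each, with limma adjusted p = 0.000606). FKBP4, a partner of steroid receptors, fell from 62.4 ± 1.03 to 48.6 ± 1.15 FPKM, and CHORDC1, an HSP90-binding protein, rose from 0.616 ± 0.0368 to 1.68 ± 0.0675 FPKM (SD, n = 3 each). CHORDC1 and CDC37L1, both among the 3 that rose, had control means under 1 FPKM (0.616 and 0.919) and passed the filter only through their level with Bmi1 shRNA. With the trend removed 1 was called higher (CHORDC1) and 3 lower (CDC37, STIP1 and TRAP1), and FKBP4 was not called.

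The small heat shock proteins, which hold unfolding proteins without ATP, split as well. HSPB1 (HSP27) measured 132, 139.9 and 130.5 FPKM in control and 166, 188 and 179 FPKM with Bmi1 shRNA, a rise without overlap (log2 fold change 0.40, standard error 0.06; limma, adjusted p = 0.00226). It was the member that rose at the highest GC content, 64.5%, and was called with the trend removed (0.20; adjusted p = 0.0292). HSPB8, which works with BAG3 in the selective removal of damaged proteins, measured 2.18, 2.02 and 1.88 FPKM in control and 1.02, 1.18 and 1.59 FPKM with Bmi1 shRNA. It fell by 0.43 on the log2 scale (adjusted p = 0.0137) but was not called with the trend removed (-0.27; adjusted p = 0.0788). HSPB11, which despite its name is a subunit of intraflagellar transport, rose 1.54-fold to 18.9 ± 2.14 FPKM (SD, n = 3). HSPB6 and HSPB9 stayed under 0.25 FPKM in every library.

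BAG3 measured 18.4, 20.1 and 19.2 FPKM in control and 12.2, 15.2 and 15.5 FPKM with Bmi1 shRNA. It fell like HSPB8, without overlap (log2 fold change -0.41, standard error 0.10; limma, adjusted p = 0.0116), and likewise was not called with the trend removed (-0.17; adjusted p = 0.168). BAG6, which guides tail-anchored proteins and damaged proteins in the cytosol, fell from 35.9 ± 2.06 to 28.4 ± 3.71 FPKM (SD, n = 3 each). BAG1 and BAG2, both exchange factors of HSP70, rose 1.55-fold and 1.53-fold. With the trend removed BAG1 stayed called (0.68), and BAG2 (0.13, limma adjusted p = 0.0906) and BAG6 (-0.0169, adjusted p = 0.863) were not called. BAG5 (3.15 ± 0.168 and 2.88 ± 0.113 FPKM) did not pass, but was called lower with the trend removed (-0.25, limma adjusted p = 0.00876). BAG4 was too low to test. The BAG1 call ended without any control replicate (adjusted p up to 0.0814), and the BAG6 call when control replicate 2, control replicate 3, or replicate 1 or 2 of Bmi1 shRNA was left out (up to 0.0837). Bmi1 shRNA replicate 3 was the highest of its group for both, at 7.51 and 32.5 FPKM.

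**Figure D3:**
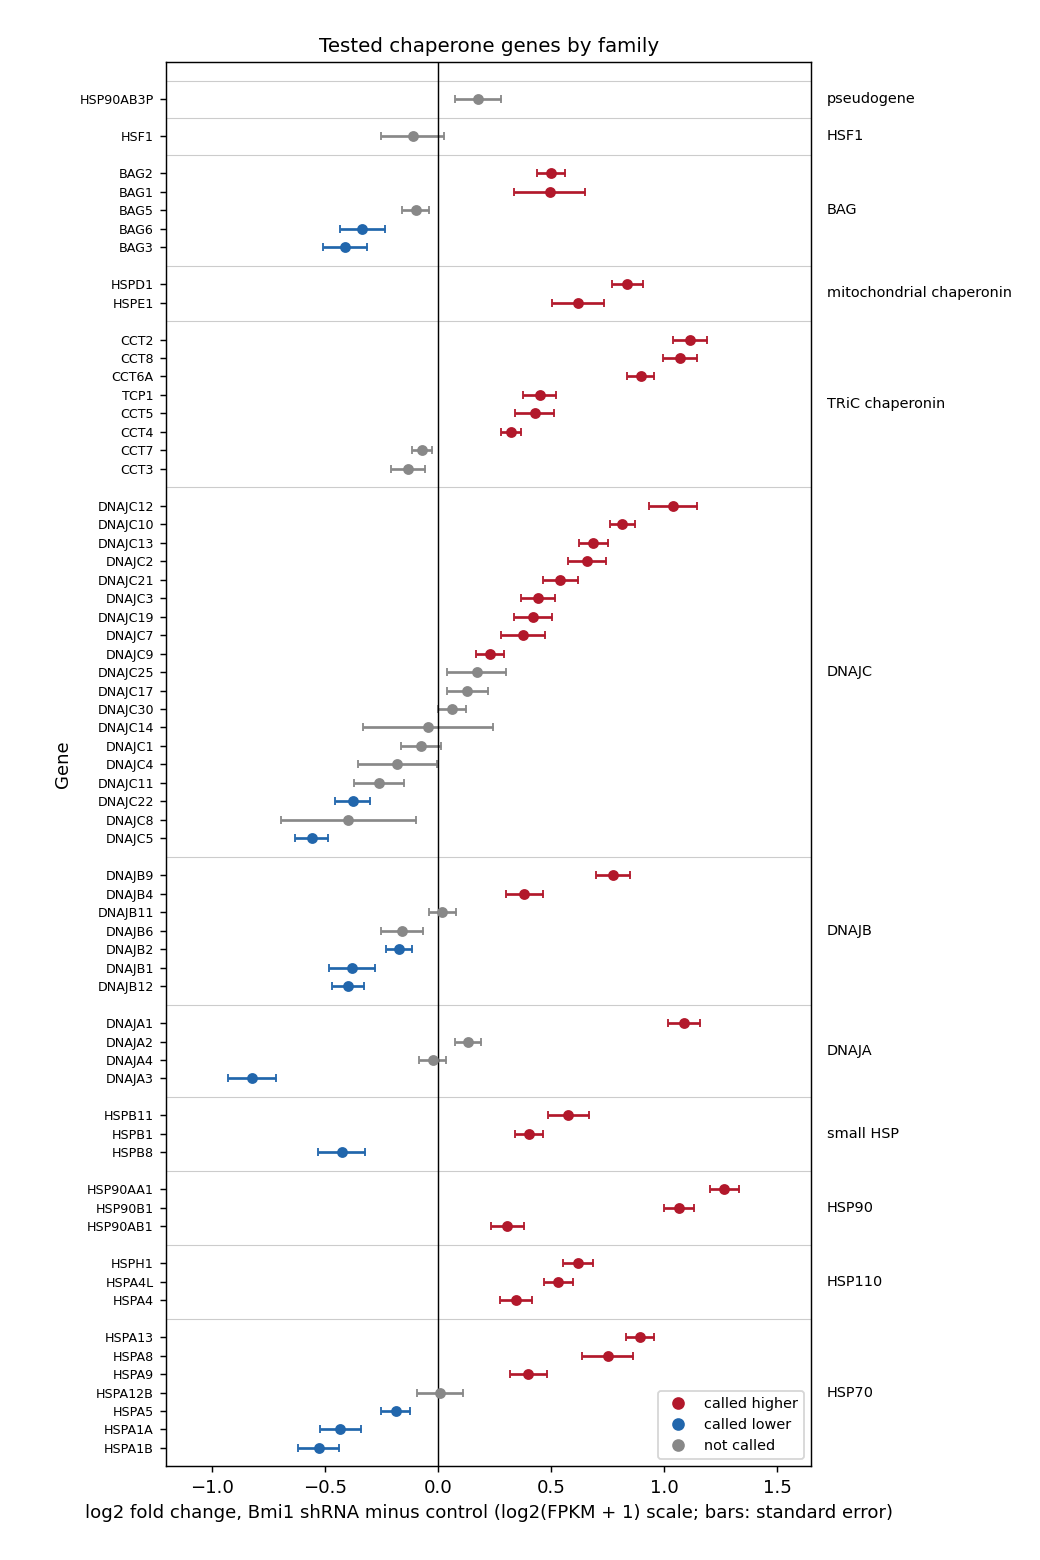
Log2 fold change (Bmi1 shRNA minus control, log2(FPKM + 1) scale) of the 63 tested chaperone genes grouped by family, with bars for the standard error and colours for the call. All tested genes of HSP110 (HSPA4L passed the filter only through the Bmi1 shRNA group), HSP90 and the mitochondrial chaperonin are called higher, the HSP70, DNAJ and BAG families hold both directions, and HSP90AA1 at 1.27 and DNAJA3 at -0.82 are the ends of the range.

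J proteins, with 43 members, moved in both directions: of 30 tested, 12 rose, 6 fell and 12 did not pass, with a median of 0.10. The 18 called are close to the share of all tested rows called, 57.1%. In the cytosol, DNAJA1 and DNAJB1, both partners of HSP70 and HSC70, moved in opposite directions. DNAJA1 measured 19.5, 19.4 and 18.3 FPKM in control and 39.9, 45.8 and 39.7 FPKM with Bmi1 shRNA, a 2.19-fold rise (log2 fold change 1.09, standard error 0.07; limma, adjusted p = 0.000252). DNAJB1 (HSP40) measured 36.6, 45.5 and 47.6 FPKM in control and 32.8, 33.7 and 31.8 FPKM with Bmi1 shRNA. It fell by 0.38 on the log2 scale (adjusted p = 0.0181), and the lowest control library lay only a little above the highest Bmi1 shRNA library. The ratio of DNAJB1 to DNAJA1 was therefore above 1 in every control library (1.88, 2.34 and 2.60) and below 1 in every Bmi1 shRNA library (0.823, 0.737 and 0.8003). DNAJA1 stayed called with the trend removed (0.73; adjusted p = 0.000763) and DNAJB1 did not (-0.21; adjusted p = 0.119). Leaving out control replicate 2, control replicate 3 or replicate 3 of Bmi1 shRNA also ended the DNAJB1 call (adjusted p up to 0.0593).

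Of the other cytosolic and nuclear J proteins, DNAJC2, DNAJC21, DNAJC9, DNAJC7 and DNAJB4 rose. DNAJC2, which binds ribosomes, rose 1.92-fold from 1.70 ± 0.211 FPKM (SD, n = 3), DNAJC21, a factor of ribosome biogenesis, 1.61-fold, and DNAJC9, a chaperone of histones H3 and H4, 1.20-fold. DNAJC7, a J protein that binds both HSP70 and HSP90, rose 1.37-fold. All 4 were called with the trend removed, but DNAJC21 and DNAJC9 were not when the replicate block was added. The DNAJC9 call ended without control replicate 3 (adjusted p = 0.0624), and that of DNAJC7 without control replicate 2 (0.0561). DNAJB4 rose 1.59-fold at 33.1% GC and was called lower with the trend removed. DNAJB2, richest in GC of the J proteins that fell, at 61.6%, fell by 0.17 on the log2 scale, a call that ended without any 1 of the 6 libraries (adjusted p up to 0.118). DNAJA2, DNAJA4, DNAJB6, DNAJC17 and DNAJC8 did not pass. With the trend removed DNAJA2 was called lower (-0.18) and DNAJC17 higher (0.44). DNAJC8, a splicing-associated protein, stood at 30.4, 32.0 and 31.8 FPKM in control and at 29.1, 32.8 and 13.7 FPKM with Bmi1 shRNA, so that replicate 3 lay apart. Without that library its log2 fold change was -0.02 in place of -0.40.

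In the endoplasmic reticulum, HSP90B1 and HSPA13 rose and HSPA5 fell. HSP90B1 (GRP94), the HSP90 of this compartment, measured 34.8, 30.8 and 31.5 FPKM in control and 66.3, 71.4 and 68.6 FPKM with Bmi1 shRNA. It rose 2.13-fold (log2 fold change 1.07, standard error 0.06; limma, adjusted p = 0.000243) and its log2 fold change was 0.80 with the trend removed. HSPA5 (BiP), the main HSP70 there, measured 134, 130.04 and 128 FPKM in control and 106, 120.2 and 119 FPKM with Bmi1 shRNA. It fell by 0.19 on the log2 scale, close to the threshold (adjusted p = 0.0441), and leaving out any control replicate, or replicate 1 of Bmi1 shRNA, ended the call (up to 0.113), as did the fit with the trend removed (0.129). The ratio of HSP90B1 to HSPA5 went from 0.247 ± 0.0123 to 0.599 ± 0.0267 (SD, n = 3 each).

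HSPA13, a shortened HSP70 of the microsomes, measured 1.57, 1.76 and 1.53 FPKM in control and 3.998, 3.86 and 3.73 FPKM with Bmi1 shRNA, a 2.38-fold rise (limma, adjusted p = 0.00028). Among J proteins of the compartment, DNAJC10, a disulfide reductase, rose 2.03-fold, DNAJB9, a partner of BiP, 1.89-fold and DNAJC3, another partner of BiP, 1.504-fold. DNAJB12, anchored in the ER membrane, measured 13.9, 15.4 and 14.4 FPKM in control and 10.5, 10.3 and 11.6 FPKM with Bmi1 shRNA, and fell by 0.40 on the log2 scale. DNAJB11 (19.7 ± 0.185 and 20.0 ± 1.16 FPKM; SD, n = 3 each), DNAJC1 and DNAJC14 did not pass. Over the compartment 5 of 10 tested members rose and 2 fell, beside 28.6% and 28.5% of all tested rows, with a median of 0.23. With the trend removed HSP90B1, HSPA13, DNAJC10 and DNAJB9 were called higher and none lower. HYOU1, an ER relative of HSP110 outside the rule, fell from 29.4 ± 1.23 to 16.5 ± 1.74 FPKM (SD, n = 3 each, with limma adjusted p = 0.000623) and was called lower after removal as well.

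Of 7 tested mitochondrial members 4 rose, 1 fell and 2 did not pass, where 28.6% of all tested rows rose and 28.5% fell. HSPD1 (HSP60), the barrel of the mitochondrial chaperonin, measured 59.3, 67.4 and 59.8 FPKM in control and 107, 116 and 113 FPKM with Bmi1 shRNA (log2 fold change 0.84, standard error 0.07; limma, adjusted p = 0.000351). HSPE1 (HSP10), its lid, measured 109, 86.8 and 99.5 FPKM in control and 166, 158 and 132 FPKM with Bmi1 shRNA (log2 fold change 0.62, standard error 0.12; adjusted p = 0.00456). These neighbours, whose joint start region is printed above, rose 1.80-fold and 1.54-fold, and the ratio of HSPE1 to HSPD1 overlapped between the groups (1.84, 1.29 and 1.66 against 1.55, 1.36 and 1.17). Both stayed called with the trend removed (0.67 and 0.37). HSPA9 (mortalin), the HSP70 of the matrix, measured 22.1, 23.6 and 21.8 FPKM in control and 27.4, 29.7 and 33.3 FPKM with Bmi1 shRNA, and rose 1.34-fold.

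DNAJA3, the J protein that works with HSPA9, had the largest fall among the 63 tested members on the log2(FPKM + 1) scale. It measured 18.8, 19.7 and 19.0 FPKM in control and 8.67, 11.4 and 11.4 FPKM with Bmi1 shRNA, a fall to 0.547 of control (log2 fold change -0.82, standard error 0.11; limma, adjusted p = 0.00126). The fall was called with the trend removed (-0.58; adjusted p = 0.0073). TRAP1, the mitochondrial HSP90, is named outside the rule and fell from 56.2 ± 5.89 to 38.0 ± 1.24 FPKM (SD, n = 3 each, with adjusted p = 0.00221). DNAJC19, of the import motor, rose 1.37-fold but was called lower with the trend removed (-0.30). DNAJC11 and DNAJC30 did not pass, though DNAJC30 was called higher with the trend removed (0.28).

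J proteins of vesicles and other places moved both ways. DNAJC5, the cysteine string protein of secretory vesicles, measured 29.3, 31.7 and 31.0 FPKM in control and 20.8, 18.8 and 22.1 FPKM with Bmi1 shRNA, and fell by 0.56 on the log2 scale (limma, adjusted p = 0.0013). DNAJC13, an endosomal J protein, rose 2.02-fold from 1.496 ± 0.0167 FPKM (SD, n = 3). DNAJC12, a cochaperone of aromatic amino acid hydroxylases, measured 3.68, 3.10 and 2.97 FPKM in control and 6.83, 8.84 and 7.59 FPKM with Bmi1 shRNA. Its 2.39-fold rise was not called with the trend removed (0.23; adjusted p = 0.0801), while DNAJC5 and DNAJC13 were called in their directions. DNAJC5 was not when the replicate block was added. DNAJC22, a membrane J protein, fell from 9.31 ± 0.841 to 6.93 ± 0.377 FPKM (SD, n = 3 each). DNAJC4 and DNAJC25 did not pass.

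TRiC is a double ring of 8 different subunits, each present once per ring, and its genes were far from even in FPKM. In control CCT7 was highest, at 184, 184 and 187 FPKM, followed by CCT3 at 78.1, 80.6 and 82.8 FPKM and CCT4 at 70.1, 67.9 and 70.0 FPKM. CCT5 followed at 37.7, 37.9 and 33.5 FPKM, and CCT6A at 20.1, 21.3 and 20.4 FPKM. TCP1 (subunit alpha) stood at 16.9, 16.0 and 17.0 FPKM, CCT8 at 13.7, 13.5 and 14.0 FPKM, and CCT2 lowest at 11.6, 12.3 and 13.9 FPKM. Neighbours in this order did not overlap in control, except CCT8 with CCT2.

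CCT2, CCT8 and CCT6A had the largest rises among the subunits, while TCP1, lower in control than CCT6A, rose less. With Bmi1 shRNA, CCT2 reached 27.5, 29.2 and 28.3 FPKM (2.25-fold), CCT8 28.4, 33.4 and 28.4 FPKM (2.19-fold) and CCT6A 37.2, 41.2 and 39.2 FPKM (1.90-fold). TCP1 rose to 24.4, 21.03 and 24.0 FPKM, CCT5 to 49.3, 53.9 and 44.8 FPKM and CCT4 to 85.6, 87.5 and 87.8 FPKM, which are 1.39-fold, 1.36-fold and 1.26-fold. The 2 most abundant, CCT7 (179, 178 and 171 FPKM) and CCT3 (77.9, 76.6 and 66.1 FPKM), did not pass (limma, adjusted p = 0.206 and 0.174), though every Bmi1 shRNA library lay below every control library. With libraries scaled to one total both were called lower (adjusted p = 0.0172 and 0.0358), as with quantile normalization (0.0036 and 0.0295). The highest subunit was 14.7 ± 1.25 times the lowest in control and 7.65 ± 0.706 times with Bmi1 shRNA (SD, n = 3 each), without overlap. Adjusted p ran from 0.000252 for CCT6A to 0.0061 for CCT5 among the 6 of 8 that rose. Of all tested rows 28.6% rose and 28.5% fell. All 6 were called higher with the trend removed, CCT2 at 1.02, where 19.1% of 10225 rows were. CCT7 and CCT3 had the highest GC content of the 8, at 51.3% and 51.2%, against 43.1% to 45.9% in the others.

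**Figure D4:**
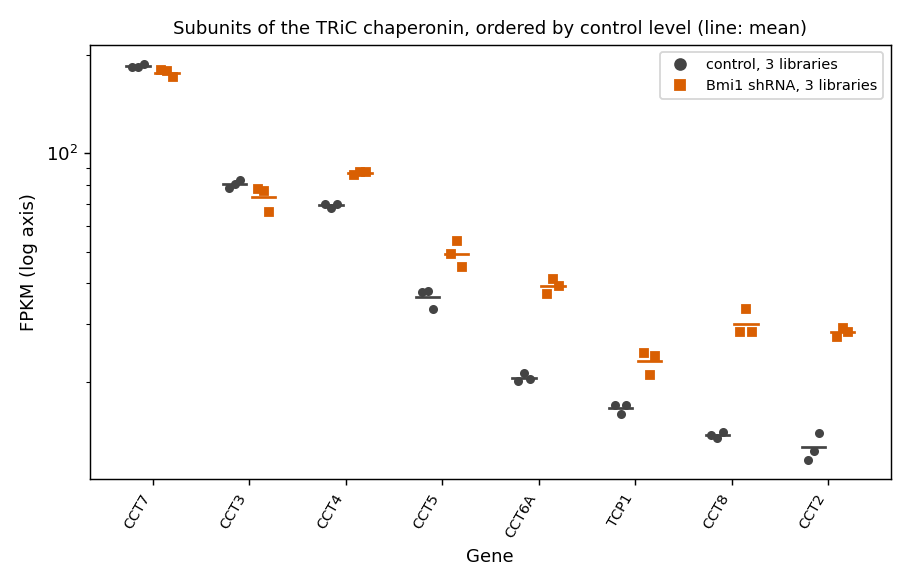
FPKM (log axis) of the 8 TRiC subunit genes ordered by their control level, with 3 control libraries (circles), 3 Bmi1 shRNA libraries (squares) and a line at each group mean. The gap between the highest and lowest subunit is smaller with Bmi1 shRNA, at 7.65 times in place of 14.7 times.

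Prefoldin, which passes unfolded actin and tubulin to TRiC, is not among the members. Of its 6 genes 5 rose, with a median of 0.48, and none fell, where 28.6% of all tested rows rose and 28.5% fell. PFDN4 rose from 15.9 ± 2.53 to 35.4 ± 0.705 FPKM (SD, n = 3 each, with limma adjusted p = 0.000559), PFDN5 from 44.9 ± 2.57 to 68.3 ± 2.11 FPKM and PFDN2 from 178.7 ± 8.88 to 231 ± 21.3 FPKM. With the trend removed 2 were called higher, PFDN5 and PFDN6. Of 10 HSP70 cochaperones outside the rule 9 were tested. Of these 2 rose, ST13 and SEC63, and 4 fell, beside the same shares of all tested rows. With the trend removed none was called higher and 2 were called lower (HYOU1 and STUB1).

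27 members had a mean under 1 FPKM and were left out of the test. The groups did not overlap for 7 of them, where this held for 18.2% of all 16222 rows under the filter, which were not matched to the members in level. CCT6B, a form of CCT6A known from testis, measured 0.332, 0.382 and 0.352 FPKM in control and 1.15, 1.22 and 0.988 FPKM with Bmi1 shRNA. DNAJB14 (0.382 ± 0.0345 and 0.777 ± 0.0997 FPKM), DNAJC24 (0.513 ± 0.0456 and 0.970 ± 0.116) and HSP90AA2P were also higher in every Bmi1 shRNA library, and DNAJC5G (0.483 ± 0.0832 and 0.224 ± 0.0551), HSPA12A and HSPA6 lower (SD, n = 3 each). In a fit with no filter on low values 5 of the 27 were called, beside 7.4% of the rows under the filter: CCT6B, DNAJB14, DNAJC24 and HSP90AA2P higher and DNAJC5G lower. The largest of these log2 fold changes, 0.64 for CCT6B, understates the ratio of its mean FPKM, 3.15, because of the pseudocount.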

How the data were processed

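Poly(A) RNA of 6 QBC-939 libraries was sequenced, per the labels' protocols, which also name adipose material that these samples are not. The authors deposited 1 table of FPKM for 27238 rows. Columns headed Sc were read as the scrambled group and those headed Sh as the Bmi1 shRNA group, numbered as in the sample titles. The tools listed are StringTie 1.3.0, HISAT2 2.0 and Bowtie 0.12.2, per the submitters' processing notes, which give no roles and name mm8, a mouse build, although the row names are human symbols, so the build is not settled. No source states whether strand was used, and reads of overlapping genes cannot be separated. Depth is unknown: of the rows under 0.5 FPKM no more than 1.51% had the same ratio (to 3 decimals) to their value in control replicate 1, so whole reads were not recovered, no count test was run, and the precision rests on the spread of 3 libraries a group, which may in part be technical.

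limma 3.58.1 (R 4.3.3) was fitted to log2(FPKM + 1), so with a pseudocount of 1, on the 11016 rows averaging 1 FPKM or more, with group as the sole term, a variance trend, and Benjamini-Hochberg adjustment over all these rows. Fold changes given as "-fold" are ratios of mean FPKM, and log2 fold changes understate the change of low genes. GC content and length came from the longest GENCODE 29 transcript, coding where there is one (92.8% of tested rows, all 63 tested members), and the trend was removed from each library by natural splines with 5 degrees of freedom each. The fit was run on simulated independent values with few changed rows and no trend in GC content. That setting differs from these data, where 57.1% of tested rows were called, so it does not measure the error of these calls. The members, gene lists and tests were chosen with earlier results of these data known. Values per library are given for a named set of core genes and the 8 largest rises and falls. Genes outside the rule are up to 3 per list with the smallest p, besides the listed cell type markers. TRAP1, CDC37, CDC37L1, STUB1 and PFDN6 were named after their values were seen. Alternatives covered the pseudocount, filter, scaling, variance prior, replicate block, trend removal and each library left out.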

Additional observations from a re-analysis of the deposited data

How the results depend on the processing

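The counts of 45 called, 33 higher and 12 lower members stayed within 1.5 times under the pseudocount of 0.1, no filter, a mean of at least 5 FPKM (45 members tested, BMI1 not among the tested rows), scaling to one total, quantile normalization, a variance prior without a trend, the replicate block and each library left out. Leaving out 1 library gave 39 to 43 called, 31 to 33 higher and 8 to 10 lower members, and BMI1 from -1.59 to -1.22. Of the 45 called members 38 kept their call in all 6 such fits. Removal of the GC content and length trend left 7 lower members and 20 called genes of the related lists in place of 36. With the replicate block as well there were 4 and 19.

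Replicate numbers did not pair the libraries: deviations from the group means correlated at 0.00374, -0.0791 and -0.0234 between same-numbered libraries. The replicate block alone gave 42 called members (32 higher, 10 lower) and ended the calls of DNAJB2, DNAJC9 and HSPA5 (adjusted p = 0.103, 0.0546 and 0.0875). Signs that turned with the trend removed, with or without the replicate block, were those of CCT7 (0.0202), DNAJA2 (-0.18), DNAJA4 (0.14), DNAJB2 (0.10), DNAJB4 (-0.24), DNAJC1 (0.037), DNAJC11 (0.0258), DNAJC14 (0.21), DNAJC19 (-0.30), DNAJC25 (-0.21) and HSF1 (0.0361). Of these, DNAJB2, DNAJB4 and DNAJC19 had been called, and the cause was not tested. Scaling to one total, which set the median of all rows to -0.10, turned DNAJB11 (-0.0672), DNAJC30 (-0.021) and HSPA12B (-0.0603), and quantile normalization HSPA12B (-0.0679), none of them called. Leaving out 1 library moved the uncalled HSPA12B between -0.0466 and 0.0998, DNAJC14 between -0.37 and 0.16, DNAJC4 between -0.35 and 0.0112, DNAJA4 between -0.0455 and 0.0098 and DNAJB11 between -0.0123 and 0.0652. DESeq2 was not run, as the table holds no counts.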
